A study of Homo sapiens with 8 samples.

Results

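ORCA binding sites in U2OS cells at mid G1 were compared with those at late G1. U2OS is a human osteosarcoma cell line. The series used chromatin immunoprecipitation and sequencing (ChIP-seq) of ORCA at 3 points of G1, and methylated DNA immunoprecipitation (MeDIP-seq) in the same line. Its 8 samples form 8 groups of 1 sample, 4 of them inputs, and 4 peak lists were deposited, of which the mid, late and MeDIP lists were used. The mid and late samples carried no transgene, knockdown or drug in their labels and differed only in the labelled cell cycle stage. No source used here says how the cells were synchronised. On chromosomes 1 to 22 the mid list held 10306 peaks and the late list 1321, of 98024 peaks in the 4 lists of the series. A mid peak that shared at least 1 bp with a late peak was called retained, any other mid peak not retained, and a late peak that shared no base with a mid peak new. This gave 977 retained mid peaks, 9329 not retained mid peaks and 395 new late peaks. The other 926 late peaks are the counterparts of the retained mid peaks.

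The protein ORCA (gene symbol LRWD1) carries WD repeats and binds the origin recognition complex (ORC). ORC marks sites on chromatin in G1 at which the replicative helicase is loaded, so that DNA replication can start there in S phase. ORCA helps to hold ORC on chromatin and is known for its place at heterochromatin, where histones carry repressive methyl marks and the DNA is often methylated at CpG. Its protein level is known to be high in G1 and to decline as cells enter S phase.

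With 1 sample per stage there was no replicate spread to set a difference against, and no test between stages was run. Intervals in brackets are 95% intervals for counting error: Wilson intervals for shares, Newcombe intervals for differences of shares and order-statistic intervals for medians. Neighbouring peaks are not independent, so these intervals are too narrow. No source used here gives the read depth. The mid list held 7.80 times as many peaks as the late list. The name of the late list carries another number beside the caller's name than the name of the mid list, and whether version, run or setting differed was not stated. List length thus cannot be told apart from the calling. All positions are hg19 coordinates counted from 1, and genes at these positions were not assigned.

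Few mid sites were called again in late G1, while most late sites had been called in mid G1. The retained share was 9.48% of mid peaks (interval 8.93 to 10.1), and 70.1% of late peaks overlapped a mid peak. The remaining 29.9% of late peaks were new (interval 27.5 to 32.4). Retained peaks made up a larger part of the mid list by length than by number: they covered 1.52 of its 8.73 Mb, or 17.4%. New peaks covered 0.364 of the 1.67 Mb of the late list, or 21.7%. The bases in both lists came to 1.10 Mb, which was 12.5% of the mid and 65.5% of the late bases.

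The shares depended on list length. With the mid list reduced to its highest-scoring peaks, as many as the late list holds, 39.7% of mid peaks were retained and 58.0% of late peaks were new. At the edge of the overlap rule, the smallest overlap was 1 bp, between a mid peak on chromosome 22 from 25742229 to 25743593 and a late peak from 25739856 to 25742229. The smallest gap was 6 bp, on chromosome 19 between a mid peak from 47729250 to 47729674 and a late peak from 47729681 to 47730101. These 2 neighbours fell among the not retained and the new peaks.

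Retained peaks came mostly from the top of the mid list by score. The score is the authors' value per peak, and it is used here only to order peaks within a list, as a percentile in which 100 would be the top. The median percentile was 88.9 for retained mid peaks (interval 87.6 to 90.2) and 46.5 for not retained ones (interval 45.5 to 47.4), a difference of 42.4 points (interval 40.8 to 44.0). Retention was nearly flat over the lower part of the list. In each of the 5 lowest of 10 equal parts by score, between 2.42% and 3.12% of mid peaks were retained. The share was 3.98%, 6.11%, 9.99% and 16.4% in the next 4 parts and 45.0% in the top part (interval 42.0 to 48.1). That top part alone held 464 of the 977 retained peaks. Of the 149 mid peaks with a score of at least 500, 88.6% were retained, and of the 71 with at least 1000, 94.4% were.

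**Figure D1:**
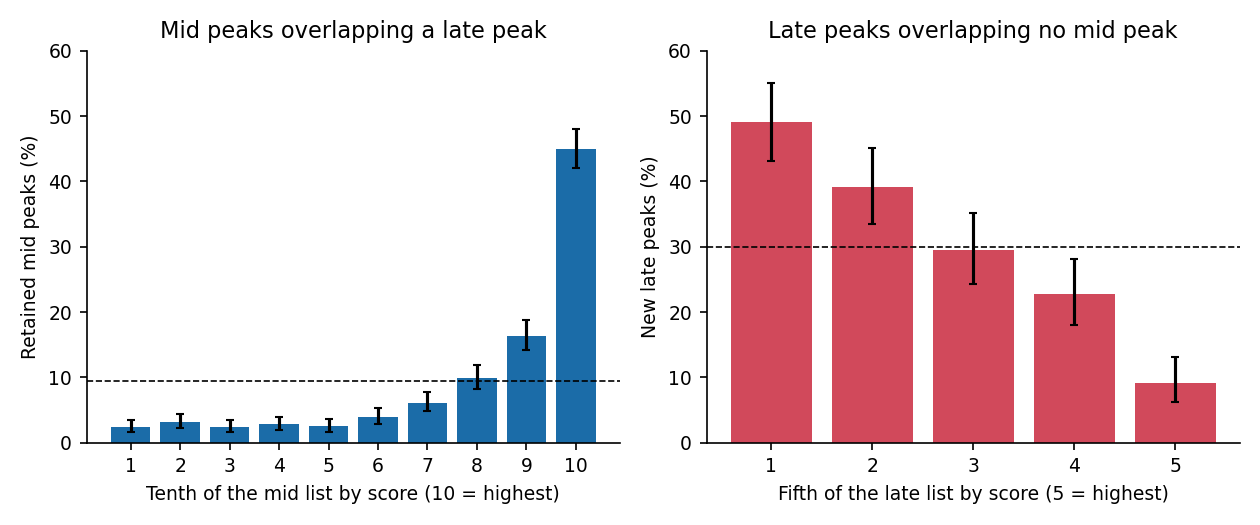
Left, share of mid peaks that overlapped a late peak in each of 10 equal parts of the mid list by score. Right, share of late peaks that overlapped no mid peak in each of 5 equal parts of the late list. Bars show percent of peaks, whiskers 95% Wilson intervals and dashed lines the shares of the whole lists, 9.48% and 29.9%. The retained share lies between 2.42% and 3.12% in the 5 lowest parts and reaches 45.0% in the top part, while the new share goes from 49.1% in the lowest part to 9.09% in the top part.

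New late peaks sat low in the late list. Their median percentile was 32.6 against 58.0 for late peaks that overlapped a mid peak, a difference of -25.4 points (interval -30.5 to -20.9). From the lowest to the top of 5 equal parts by score, 49.1%, 39.2%, 29.4%, 22.7% and 9.09% of late peaks were new. Only 1 of the 66 late peaks with a score of at least 500 was new, and 0 of the 30 with at least 1000 (interval 0 to 11.4%). With the widest 5% of each list left out, the difference in percentile shrank to -12.1 points. In that setting 574 of 1255 late peaks counted as new, among them those whose wide mid partner was left out.

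In 730 cases a single mid peak overlapped a single late peak and the reverse. Across these pairs the Spearman correlation of the score percentiles was 0.50, given as a description, since both values come from the same sites and score goes with width. Of the 95 pairs in the top 10% of the late list, 88 were also in the top 10% of the mid list, which held 358 of all 730 pairs. The lists differ in length, so a percentile of one list is not the same standing in the other.

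The top score was 3100, reached by 16 mid and 9 late peaks on these chromosomes. Of the 16 mid peaks 15 were retained, and of the 9 late peaks none was new. In late G1, 9 of the 15 retained peaks again had a partner at 3100, while the lowest partner score was 289.81, at percentile 91.5 of the late list. For 13 of the 15 there was a single late partner, which was wider than the mid peak in 7 cases and narrower in 6. The 5 described next are the first by position among these 15 ties. On chromosome 1 the mid peak from 236259941 to 236261072 was 1132 bp wide, and its late partner from 236259834 to 236261098 was 1265 bp wide, both with a score of 3100. On chromosome 6 the mid peak from 107389812 to 107392259 was 2448 bp wide and the late peak from 107389752 to 107392322 was 2571 bp wide, again with 3100 in both lists. The mid peak on chromosome 5 from 177239045 to 177240773 was paired with a late peak from 177239287 to 177241093, with 3100 in both. These 3 sites were at the top score in both lists, with a late peak somewhat wider than the mid peak.

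The other 2 of the 5 peaks described were narrower in late G1. The mid peak on chromosome 2 from 242838231 to 242839280 scored 3100 over 1050 bp, and its late partner scored 2697.42 over 815 bp. On chromosome 5 the mid peak from 175456493 to 175458561 scored 3100 over 2069 bp, and its late partner 2217.55 over 1320 bp. Each late partner was still above the 99th percentile of the late list. Over all 15 tied peaks, 7 overlapped a peak of methylated DNA (MeDIP), against 57.4% of all retained mid peaks.

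The highest-scoring mid peaks without a late counterpart lay on chromosomes 21, 7, 19, 17 and 2. The peak on chromosome 21 from 9825384 to 9827761 had the top score of 3100 and lay 6645 bp from the nearest late peak. On chromosome 7 the peak from 1530419 to 1540400 was 9982 bp wide, scored 1609.6 and lay 2934 bp from a late peak. The peak on chromosome 19 from 37774480 to 37779304 scored 1388.02 and lay 121 bp from a late peak. Peaks close to a late peak without touching it thus stand beside peaks far from any. The peak on chromosome 17 from 21902013 to 21907933 scored 1159.78 at 350714 bp from a late peak. The peak on chromosome 2 from 130012430 to 130014173 scored 835.26 at 736931 bp. The first 4 of these 5 overlapped a MeDIP peak, as did 71.3% of the not retained peaks in the top of 5 equal parts of the mid list by score.

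Retained peaks were wide. The median width was 1118 bp in retained mid peaks (interval 1050 to 1169) and 600 bp in not retained ones (interval 594 to 608), a ratio of 1.86 (interval 1.75 to 1.95). Under 500 bp, 3.01% of mid peaks were retained, and from 3000 bp upward 54.9% were. The overlap rule itself favours wide peaks, since a wider peak has more bases that a late peak can share. Width and score went together in the mid list, with a Spearman correlation of 0.62 across peaks. Within score classes the difference in width was smaller. In the lower 50% of the list the medians were 653 bp for retained and 505 bp for not retained peaks, and in the top 10% they were 1759.5 and 1594 bp. With the mid list cut to the length of the late list the ratio was 1.15.

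Within the top 10% by score, narrow peaks were retained more often than those of intermediate width. Of the 14 such peaks under 500 bp, 12 were retained, and of the 54 between 500 and 750 bp, 70.4% were (interval 57.2 to 80.9). The share was 32.9% of 255 peaks between 1000 and 1500 bp (interval 27.5 to 38.9). It was 62.1% of the 153 widest, from 3000 bp upward (interval 54.2 to 69.4).

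Matched sites did not share the greater width of the late list as a whole. Over all peaks the median was 624 bp in mid and 951 bp in late G1. Over the 730 matched pairs it was 1084.5 bp in mid and 959 bp in late G1. The median log2 ratio of late to mid width was -0.08 (interval -0.13 to -0.05), a ratio of 0.943, with 436 pairs narrower and 294 wider in late G1. The middle 50% of pairs had log2 ratios between -0.49 and 0.17. More than a factor of 2 separated the widths in 72 pairs that were narrower and in 27 that were wider in late G1. The size of the median log2 ratio moved with the setting, from -0.21 with the mid list at the length of the late list to -0.025 without the widest 5% of peaks, where its interval reached 0.0065.

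The width change differed with the width by which the pairs were sorted. In the narrowest of 4 equal parts of the pairs by mid width, the median log2 ratio was 0.15 (interval 0.07 to 0.21). In the widest part it was -0.51 (interval -0.61 to -0.35), with medians of 2508 bp in mid and 1784 bp in late G1. The sorting used 1 of the widths compared, which by itself can tilt the medians, so both sortings are given. Sorted by late width, the median ran from -0.16 in the narrowest to -0.01 in the widest part, and in none of these parts was it above 0.

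**Figure D2:**
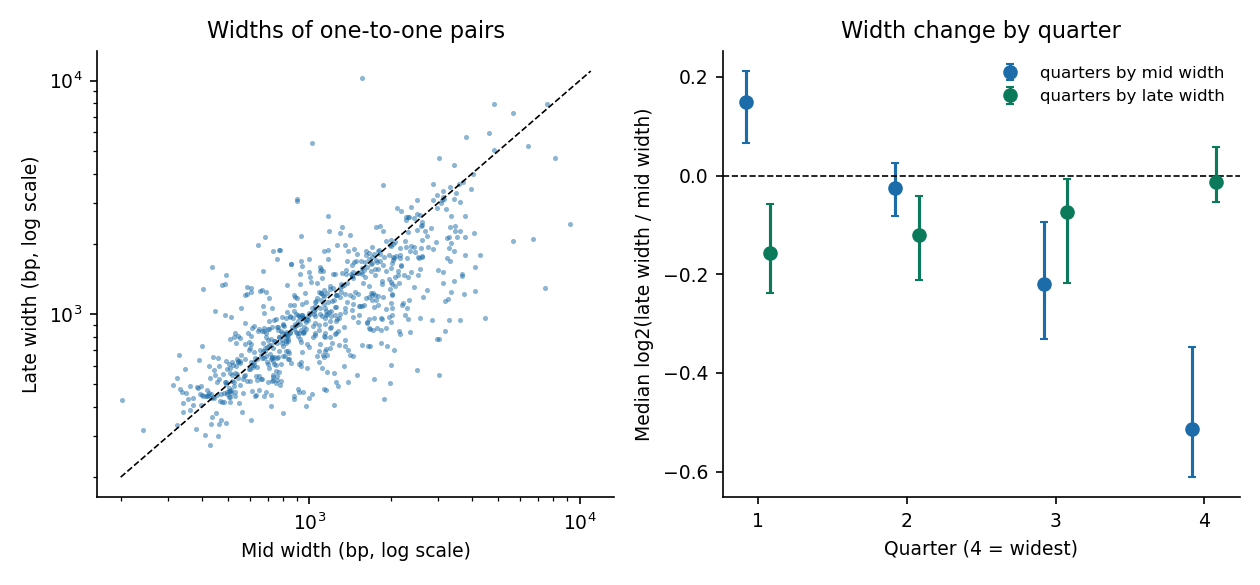
Left, width in late against mid G1 for the 730 pairs of a single mid and a single late peak, on log axes, with the line of equal width dashed. Right, median log2 ratio of late to mid width in 4 equal parts of the pairs, by mid width (blue) or late width (green), with 95% order-statistic intervals. By mid width the median goes from 0.15 in the narrowest to -0.51 in the widest part, and by late width from -0.16 to -0.01.

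Pairs were chosen because their peaks overlap, so the rule itself keeps their centres close. The shorter peak lay wholly inside the longer one in 379 of 730 pairs (51.9%), and the median distance between centres was 110 bp. In 29 pairs the overlap was under 50% of the shorter peak. Outside the pairs, 110 late peaks spanned several mid peaks, at most 3, and 59 mid peaks spanned several late peaks, at most 4. Such peaks were wide, with a median of 1647.5 bp for the late and 2635 bp for the mid ones. Of these, 57 of the late and 32 of the mid peaks lay in the dense ends of chromosomes 7 and 8 (chromosome 7 up to 7 Mb and chromosome 8 beyond 140 Mb).

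The largest losses of width were on chromosomes 8 and 7. A mid peak on chromosome 8 from 58119131 to 58126579, of 7449 bp, was matched by a late peak of 1291 bp from 58125289 to 58126579, a log2 ratio of -2.53. Another on chromosome 8, from 144892906 to 144895927, went from 3022 to 550 bp, and one on chromosome 7 from 1486639 to 1491101 went from 4463 to 959 bp. All 3 mid peaks were above the 96th percentile of their list, and the 3 late peaks had scores of 50.78 to 58.17, close to the lowest score in the late list of 50.02. The largest gains were on chromosomes 21, 3 and 19. On chromosome 21 a mid peak of 1561 bp from 11105907 to 11107467 met a late peak of 10267 bp from 11107400 to 11117666, with only 68 bp in common. On chromosome 3 the width went from 1018 bp, at 75786260 to 75787277, to 5426 bp, and on chromosome 19 from 434 bp, at 44980946 to 44981379, to 1593 bp. The late peak on chromosome 19 had a score of 1173.58, at the 98th percentile of its list, while the mid peak, with 68.14, was at the 47th percentile of its own.

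Retained peaks were more clustered than the rest of the mid list. Another mid peak lay within 20 kb of 78.1% of retained and 58.9% of not retained peaks, a difference of 19.2 percentage points (interval 16.3 to 21.9). The median gap to the nearest other mid peak was 782 bp for retained and 9397 bp for not retained peaks. Mid peaks that overlap the same late peak are retained together and lie near each other, and 110 late peaks overlapped several mid peaks. The rule thus bears on these differences and on the cluster sizes below. How far it set them was not tested. Score went with cluster size, from a median percentile of 40.9 for single mid peaks to 69.5 in clusters of 20 or more, with gaps of at most 20 kb. With not retained peaks weighted to the score parts of the retained ones, a weighting added once the data had been seen, the difference was 6.13 percentage points. With the mid list at the length of the late list it was 2.49 (interval -2.98 to 7.92), and with a gap of 100 kb in place of 20 kb it was 10.8.

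Mid peaks at most 20 kb apart were joined into clusters, which gave 4049 single peaks and 1287 clusters of 2 or more. The retained share was 5.29% of single peaks, 8.78% of peaks in clusters of 2 to 4, 12.8% in clusters of 5 to 19 and 16.1% in clusters of 20 or more, against 9.48% in the whole list. The relation differed by score. In the lower 50% of the list by score, 1.36% of single peaks (interval 0.97 to 1.90) and 5.53% of peaks in clusters of 20 or more (interval 3.96 to 7.66) were retained. In the top 10% it was 50.5% of single peaks (interval 43.7 to 57.2) and 37.1% of peaks in such clusters (interval 32.5 to 41.8). Among high-scoring peaks, those that stood alone were thus retained more often than those in the largest clusters.

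**Figure D3:**
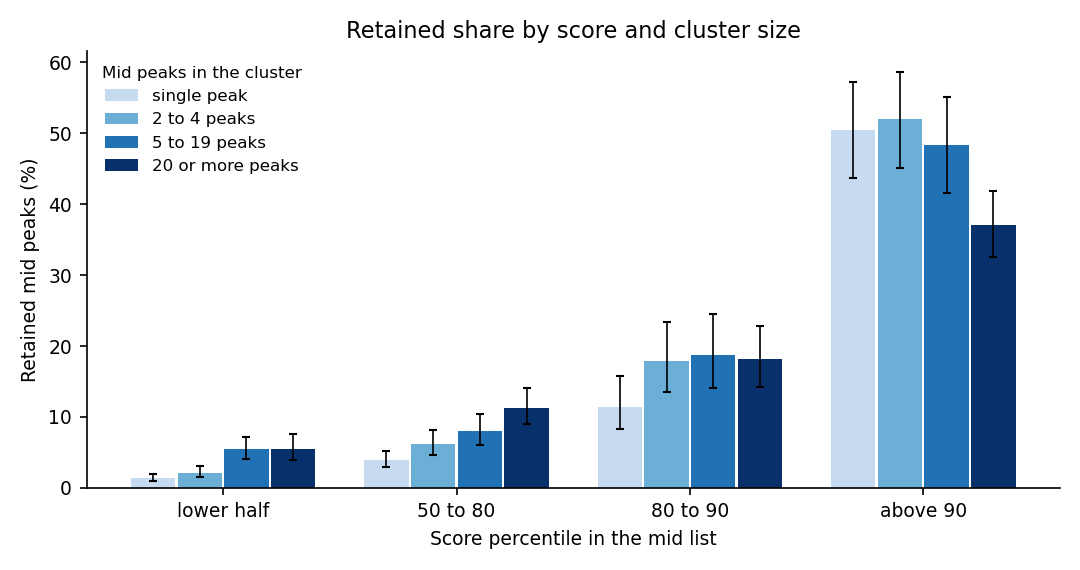
Share of mid peaks retained in late G1, by score percentile in the mid list (horizontal axis) and by the number of mid peaks in the cluster (shades of blue). Whiskers are 95% Wilson intervals. In the lower 50% the share is 1.36% for single peaks and 5.53% in clusters of 20 or more, and above the 90th percentile it is 50.5% and 37.1%.

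Retained peaks also followed one another. Among neighbours at most 20 kb apart, the next peak along the chromosome was retained after 38.7% of 643 retained peaks (interval 35.0 to 42.5) and after 9.01% of 4327 not retained peaks (interval 8.20 to 9.90). Without the dense ends of chromosomes 7 and 8 these shares were 37.8% and 7.77%. Neighbouring mid peaks can overlap the same late peak, and 110 late peaks overlapped several mid peaks. The 926 late peaks that overlapped a mid peak formed 1044 overlapping pairs. The 249 cases of a retained peak followed by a retained one include neighbours that share a late peak. The share without such neighbours was not computed. In the 125 clusters of 2 to 4 peaks with exactly 1 retained peak, that peak was the highest-scoring of its cluster in 76.0%, where the mean of 1 over the cluster size was 41.7%. In the 56 such clusters of 5 to 19 peaks it was 37.5%, where that mean was 12.4%.

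The 3 largest clusters, and the one named for its number of retained peaks, kept 14.4% to 29.5% of their mid peaks, above the 9.48% of the whole list. The cluster on chromosome 7 from 886776 to 1810966 held 269 mid peaks, of which 51 were retained (18.96%), and 52 late peaks, of which 5 were new. The next on chromosome 7, from 1848314 to 2443864, held 167 mid peaks with 24 retained (14.4%) and 28 late peaks with 6 new. On chromosome 8, the cluster from 144267099 to 144744765 held 151 mid peaks with 32 retained (21.2%) and 27 late peaks with 2 new, and that from 145480217 to 145855767 held 122 mid peaks with 36 retained (29.5%) and 36 late peaks with 4 new. New late peaks were few inside these clusters. In the largest, the 269 mid peaks had a median width of 1280 bp in a span of 924 kb. Where mid peaks are this dense, a late peak more readily shares 1 bp with one. How far this set the low numbers of new peaks was not tested.

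Some clusters had no retained peak. This held for 111 of 251 clusters of 5 or more mid peaks and for 4 of 32 clusters of 20 or more. The largest of these held 25 mid peaks on chromosome 7 (2882994 to 2984710). Another on chromosome 20 (62013240 to 62134103) also held 25, and the third, on chromosome 7 (588655 to 722797), held 23. Each of the 3 spans held a single late peak, which was new by the selection, since no mid peak there was retained. Their median scores of 83.55, 67.93 and 75.7 were below the 112.26 of the largest cluster. The median over all mid peaks was 69.92, so 83.55 and 75.7 lay above it and 67.93 below.

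The retained share varied along the genome. It was highest on chromosome 21 at 17.7% (29 of 164 peaks, interval 12.6 to 24.2), chromosome 18 at 15.0% (37 of 246) and chromosome 19 at 13.7% (25 of 183). It was lowest on chromosome 3 at 4.21% (11 of 261, interval 2.37 to 7.39), chromosome 20 at 5.10% (20 of 392) and chromosome 2 at 5.43% (40 of 737). The interval lay above the list's 9.48% on 5 of 22 chromosomes, which were 1, 7, 8, 18 and 21, and below it on 6, which were 2, 3, 12, 15, 17 and 20. Chromosomes also differed in the scores of their mid peaks. The number retained was 1.84 times that given by the score parts of its peaks on chromosome 21, 1.54 times on chromosome 19, 1.48 times on chromosome 6 and 1.40 times on chromosome 18. It was 0.599 times on chromosome 20, 0.644 times on chromosome 3 and 0.703 times on chromosome 2. The score-based number leaves out how many late peaks a chromosome held. Mid peaks per late peak were 4.69, 3.52, 5.83 and 5.47 on chromosomes 21, 19, 6 and 18. They were 12.25, 12.4 and 14.2 on chromosomes 20, 3 and 2. Whether this set the ratios was not tested.

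Chromosomes 7 and 8 held 27.2% of mid peaks and 37.3% of retained ones. Their retained shares of 12.9% and 13.1% were close to what their scores give: the ratios to the score-based numbers were 0.936 and 1.12. Within chromosome 8 the ratio was 1.21 in the dense end and 0.740 in the rest, and within chromosome 7 it was 0.901 and 1.12. In the dense ends of both chromosomes together, 15.1% of 2031 mid peaks were retained (interval 13.6 to 16.7), against 8.11% of 8275 elsewhere. The ratios to the score-based numbers were 1.03 and 0.988 there, and the median mid widths were 1051 and 565 bp. New peaks made up 15.5% of 330 late peaks in the dense ends (interval 11.95 to 19.7) and 34.7% of 991 elsewhere (interval 31.8 to 37.7). The dense ends held 21 of the 32 clusters of 20 or more mid peaks. Whether this density lowered the share of new peaks was not tested.

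The share of late peaks that were new was highest on chromosomes 13 and 19, at 50% of 16 and of 52 peaks, and on chromosome 3, at 47.6% of 21. It was lowest on chromosome 18 at 17.8% of 45, chromosome 8 at 19.5% of 185 and chromosome 2 at 21.2% of 52. The interval lay above the list's 29.9% on chromosomes 6 and 19 and below it on chromosomes 7 and 8. On the other chromosomes it included that share, and most held few late peaks. Chromosome 19 was also among the 3 highest by retained share, but that interval (9.43 to 19.4) included the 9.48% of the whole mid list. It held 26 new late peaks, 1.93 times the score-based number. It had 3.52 mid peaks for each late peak, against 7.80 in the lists as a whole.

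**Figure D4:**
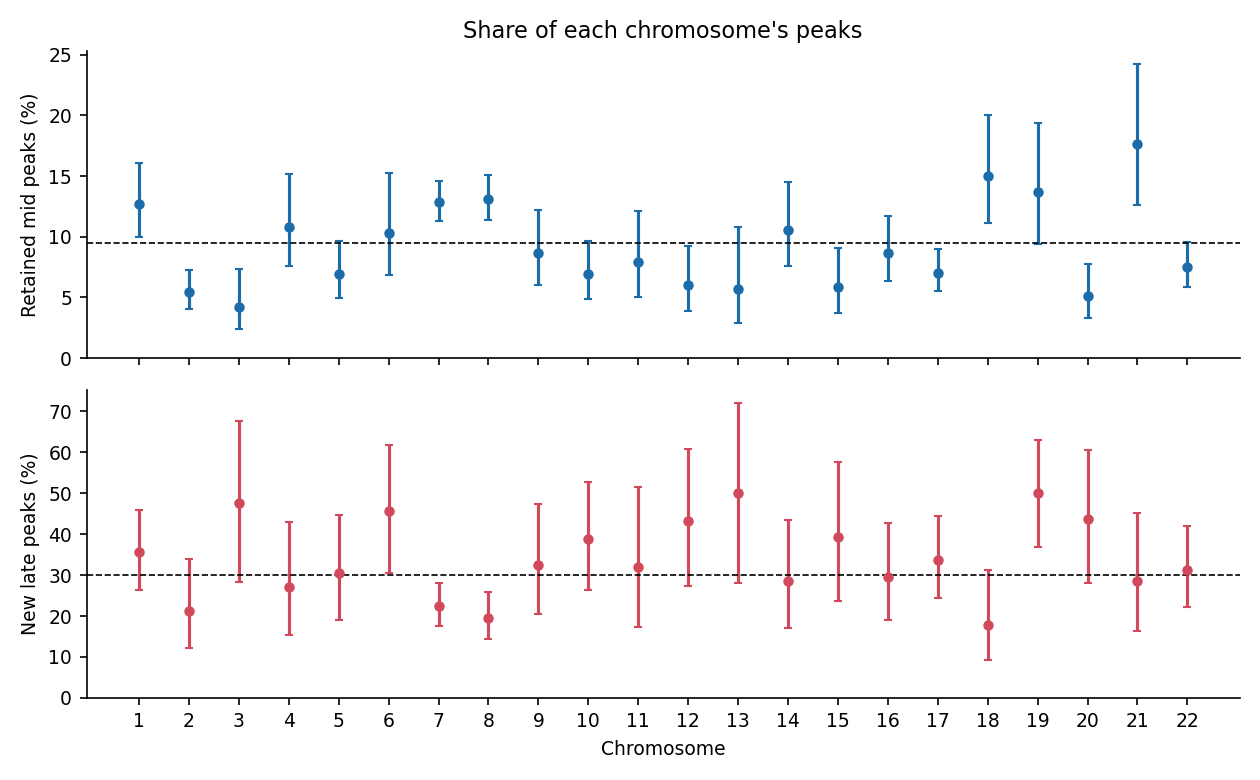
Share of mid peaks retained (top, percent) and of late peaks that were new (bottom, percent) on chromosomes 1 to 22. Points are shares, whiskers 95% Wilson intervals and dashed lines the shares of the whole lists, 9.48% and 29.9%. Chromosome 21 has the highest retained share, 17.7%, and chromosomes 13 and 19 the highest new share, 50%.

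New late peaks were narrower than the other late peaks, with a median of 753 bp (interval 701 to 818) against 1038.5 bp (interval 994 to 1097). The overlap rule bears on this too, since a narrower peak has fewer bases that a mid peak can share. New late peaks were also more scattered. Late peaks that overlap the same mid peak lie near each other and are never new, and 59 mid peaks overlapped several late peaks. How far this set the difference in spacing was not tested. Another late peak lay within 100 kb of 51.6% of new peaks and of 72.7% of the others, a difference of -21.0 percentage points (interval -26.7 to -15.3). It was -21.9 at equal score makeup, -13.1 with a gap 5 times as long, and -4.06 (interval -9.37 to 1.26) without the widest 5% of each list, where late peaks whose wide mid partner was left out count as new. By clusters of late peaks at most 100 kb apart, 43.0% of single late peaks, 29.2% in clusters of 2 to 4, 22.7% in clusters of 5 to 19 and 13.5% in clusters of 20 or more were new.

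Most new peaks lay within 100 kb of a mid peak. The median gap from a new late peak to the nearest mid peak was 12019 bp, with 21.5% of new peaks within 1 kb of one, 48.9% within 10 kb and 80.5% within 100 kb. A cluster of 2 or more mid peaks lay within 20 kb of, or around, 42.5% of new peaks. The gap was shortest, at 6 bp, for the peak on chromosome 19 named above and longest, at 3035937 bp, for a peak of 350 bp on chromosome 6, at 23019669 to 23020018, whose score was 52.23. In the other direction, 3.40% of not retained mid peaks lay within 1 kb of a late peak and 41.0% within 100 kb, and their median gap was 220505 bp. The late list is the sparser one, so the gaps in the 2 directions are not comparable.

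The 5 highest-scoring new peaks lay on chromosomes 10, 2, 7, 19 and 12. On chromosome 10 the peak from 135477887 to 135483632 was 5746 bp wide, had a score of 923.42, overlapped a MeDIP peak and lay 39066 bp from a mid peak. On chromosome 2 the peak from 243153327 to 243154917 scored 474.67 at 200495 bp from a mid peak. That on chromosome 7 from 57187318 to 57188620 scored 454.43 at 135354 bp. That on chromosome 19 from 58772981 to 58774305 scored 354.89 at 343117 bp and overlapped a MeDIP peak. That on chromosome 12 from 133633970 to 133635611 scored 340.21 at 144141 bp. All 5 were thus farther from any mid peak than the median new peak.

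Methylated DNA is a readout that played no part in choosing the groups. MeDIP peaks mark DNA rich in methylated CpG, and the MeDIP sample had no cell cycle stage in its labels. They overlapped 48.6% of all mid peaks and 47.9% of all late peaks. A MeDIP peak was found at 57.4% of retained mid peaks (interval 54.3 to 60.5), 47.7% of not retained ones (interval 46.7 to 48.7) and 26.3% of new late peaks (interval 22.2 to 30.9). The late peaks that overlapped a mid peak had 57.1% (interval 53.9 to 60.3). In the 730 matched pairs, the mid and late peak were alike in 713 cases: 376 pairs overlapped a MeDIP peak at both stages and 337 at neither.

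New late peaks overlapped MeDIP peaks less often than the other late peaks. The difference was -30.8 percentage points (interval -36.0 to -25.2). Between 500 and 3000 bp of width it ran from -14.5 in peaks of 500 to 750 bp to -43.0 in those of 1500 to 3000 bp, and each of these 4 intervals lay below 0. Under 500 bp it was -9.14 (interval -21.6 to 4.48), and only 5 new peaks were at least 3000 bp wide. In each of 5 equal parts of the late list by score it was between -38.5 and -24.2. With overlapping peaks weighted to the widths of the new ones it was -23.7, and without the dense ends -23.1. Without the widest 5% of each list, where late peaks whose wide mid partner was left out count as new, it was -6.90 (interval -12.4 to -1.35). New peaks nearer to a mid peak overlapped MeDIP peaks more often: 50.6% of 85 within 1 kb, 29.6% of 108 from 1 to 10 kb, 15.2% of 125 from 10 to 100 kb and 13.0% of 77 farther away. Their median widths in these classes were 883, 863, 700 and 601 bp. Not retained mid peaks had a like gradient by gap to a late peak, with 67.2%, 66.6%, 55.6% and 39.2% in the same classes. Their median widths were 984, 959, 758 and 527 bp, and wider mid peaks overlapped MeDIP peaks more often. How far width set either gradient was not tested.

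Retained and not retained mid peaks differed in methylated DNA by 9.71 percentage points (interval 6.43 to 12.9), but the direction depended on the peaks compared. With not retained peaks weighted to the widths of the retained ones, the difference was -0.39. Without the dense ends of chromosomes 7 and 8 it was 2.47 (interval -1.43 to 6.42), and within them 16.8 (interval 11.6 to 21.3). In the lowest of 5 equal parts by score, 47.4% of retained and 35.1% of not retained peaks overlapped a MeDIP peak, a difference of 12.3 whose interval includes 0 (-0.27 to 25.2). In the top part the values were 63.3% and 71.3%, a difference of -7.94 (interval -12.4 to -3.56). Reducing the mid list to the length of the late list gave -11.1 (interval -16.1 to -6.03). Under 500 bp, 25.6% of 90 retained peaks and 39.5% of 2904 not retained peaks overlapped a MeDIP peak, a difference of -14.0 (interval -22.1 to -3.94).

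**Figure D5:**
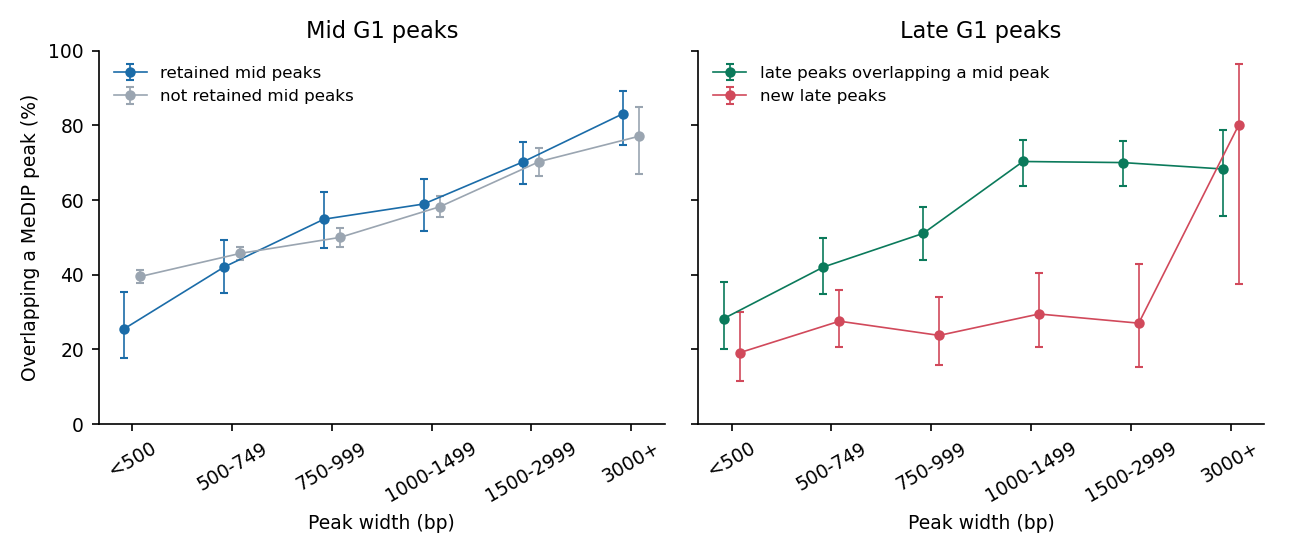
Share of ORCA peaks that overlapped a MeDIP peak (percent) by peak width, for mid peaks on the left and late peaks on the right. Points are shares in 6 width classes and whiskers 95% Wilson intervals. From 500 bp upward the shares of retained and not retained mid peaks differ by at most 6.06 percentage points, while new late peaks stay between 19.1% and 29.5% up to 3000 bp, where the other late peaks go from 28.3% to 70.3%.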

How the data were processed

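Of 8 samples, each the only one of its group, the mid G1 ORCA, late G1 ORCA and MeDIP lists were used. The early list and the 4 inputs were left out. Reads were processed with Trimmomatic and Bowtie 0.12.7 on GRCh37 and hg19, per the submitters' processing notes. Peak names in the deposited lists carry the name MACS, a peak caller. Its version, settings, controls and pooling are not given in the sources used here. Each deposited list holds a start, an end and a score per peak. The score was made by the authors' caller and is at least 50 in both ORCA lists.

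Peaks on chromosomes 1 to 22 were kept, 10306 of 10382 mid and 1321 of 1347 late peaks. Overlap meant at least 1 bp. Percentile ranks gave tied scores their mean rank. Score-based numbers sum, over a chromosome's peaks, the list's share in each of 10 (mid) or 5 (late) score parts. Peaks, pairs and clusters named by position were those at the extremes of score, width change, cluster size, retained number and gap, with ties taken by position: 5 peaks per group, 3 pairs per direction, 3 clusters per kind. The groups and rules were chosen with earlier results of these data known. Genes and sequences were not assigned, since no hg19 genome or annotation was used here. The code was tested on 20 simulated lists, and every planted overlap was found in 20 of them. Python 3.11.15, numpy 2.4.6, pandas 2.3.3, scipy 1.17.1, statsmodels 0.14.6 and matplotlib 3.10.9 were used.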

Additional observations from a re-analysis of the deposited data

How the results depend on the processing

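Besides the main setting, 10 others were tried. With an overlap of at least 50% of the shorter peak, 8.67% of mid peaks were retained and 32.8% of late peaks new. When peaks within 1 kb counted as overlapping, the shares were 12.6% and 23.5%, the score percentile of retained peaks was 39.6 points above the rest, the clustering differences were 24.8 and -28.2 percentage points, and the MeDIP difference of new peaks was -36.9. With the mid list at the length of the late list, the shares were 39.7% and 58.0%, the percentile differences 32.4 and -32.3, the log2 width change -0.21, the width ratio 1.15, the clustering differences 2.49 and -15.1, and the MeDIP difference of retained peaks turned to -11.1. In the higher-scoring 50% of each list the shares were 10.3% and 22.9%, the width change -0.043, the width ratio 1.61, the clustering difference of retained peaks 13.6 and their MeDIP difference -1.06. Without the dense ends of chromosomes 7 and 8 the shares were 8.11% and 34.7%, the percentile difference of retained peaks 44.2, the width ratio 1.72 and the MeDIP differences 2.47 and -23.1. Without the widest 5% of each ORCA list the shares were 7.44% and 45.7%, the percentile differences 39.5 and -12.1, the width change -0.025, the width ratio 1.52, the clustering differences 14.8 and -4.06 and the MeDIP differences 4.57 and -6.90. A shorter gap gave a clustering difference of 22.3 for retained peaks, and a gap 5 times as long 10.8 for retained and -13.1 for new peaks. Weighting to equal score ranks gave 6.13 for retained peaks, and weighting to equal widths gave MeDIP differences of -0.39 for retained and -23.7 for new peaks; both weightings were chosen after seeing the data. In all, 9 of 10 results kept their direction in each setting run for them, and the MeDIP difference of retained peaks turned in 3 settings. Shares cannot be negative, so the retained and new shares counted among the 9 could not have turned. Some kept directions had intervals of both signs. With the mid list at the length of the late list, the interval for clustering of retained peaks was -2.98 to 7.92. Without the widest 5%, that for clustering of new peaks was -9.37 to 1.26 and that for width change -0.057 to 0.0065. The causes of the changes between settings were not tested, apart from the lists being shorter by construction where peaks were left out. By the same construction, a late peak whose only mid partner was left out counts as new. No paired analysis was possible because each stage had 1 sample, and for the same reason no replicate could be left out.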

Other observations

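Some small clusters kept most of their mid peaks. They were singled out after their values were seen, as the 5 clusters of at least 5 mid peaks with the highest retained share, and are given with no test. On chromosome 7 from 158122583 to 158153919, 8 of 9 mid peaks were retained, and the span held 10 late peaks, none of them new. On chromosome 16 from 46723423 to 46731631, 5 of 6 mid peaks were retained, with a median width of 445.5 bp and a highest score of 1129.65. On chromosome 14 from 69253775 to 69263230, 4 of 5 were retained, on chromosome 1 from 52838831 to 52863678, 6 of 9, and on chromosome 11 from 65267866 to 65275670, 4 of 6. The spans on chromosomes 16, 14, 1 and 11 held 5, 2, 6 and 4 late peaks, of which 1, on chromosome 11, was new. On chromosome 14 there were thus fewer late peaks than retained mid peaks.

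None of the mid peaks in the clusters on chromosomes 16, 14 and 11 overlapped a MeDIP peak, and 1 of 9 on chromosome 1 and 2 of 9 on chromosome 7 did. MeDIP peaks overlapped 48.6% of all mid peaks and 25.6% of retained mid peaks under 500 bp. In the largest cluster of the list, on chromosome 7 from 886776 to 1810966, 225 of 269 mid peaks did, or 83.6%. The median width of the mid peaks was 1189 bp in the small cluster on chromosome 7 and 381 to 687 bp in the other 4, against 1280 bp in the largest cluster. Genes and exons at these positions were not assigned. Whether such runs of narrow peaks lie over exons of a single gene, and whether they mark bound ORCA, was not tested.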
